A study of Mus musculus with 8 samples.

Results

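The 10 genes described here are the tumour suppressor gene Trp53, its negative regulator Mdm2, the CDK inhibitor genes Cdkn1a, Cdkn1b, Cdkn2a, Cdkn2b, Cdkn2c and Cdkn2d, and the p53 target genes Plk2 and Ccng1. They were taken by symbol from the 55471 gene rows of a count table, and each symbol matched 1 row. The table holds bulk RNA sequencing of 2 cell populations sorted by flow cytometry from mouse femurs, skeletal stem cells (SSC) and their descendants in the lineage, bone cartilage stromal progenitors (BCSP). The mice were neonates of 3 to 5 days. Wild-type and Tet1 knockout (KO) mice were compared, and every sample, wild type included, is labelled with the strain B6;129S4-Tet1tm1.1Jae/J. Tet1 encodes a dioxygenase that oxidises 5-methylcytosine in DNA. Each of the 4 groups (wild-type SSC, KO SSC, wild-type BCSP and KO BCSP) held 2 libraries, numbered round 1 and round 2 in the titles. The labels say neither what a round marks nor whether the libraries of a group came from separate animals, litters or pools, so p-values measure only the spread between these samples. They also do not give the sex of the pups.

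The protein p53 is a transcription factor that is held at a low level by the ubiquitin ligase Mdm2 and accumulates after DNA damage and other stress. Its targets include Mdm2 itself, which closes a feedback loop, the CDK inhibitor gene Cdkn1a, the kinase gene Plk2 and the cyclin gene Ccng1. CDK inhibitors stop cells from entering the division cycle. The CIP/KIP members Cdkn1a (p21) and Cdkn1b (p27) bind cyclin complexes of several kinases, while the INK4 members Cdkn2a (p16), Cdkn2b (p15), Cdkn2c (p18) and Cdkn2d (p19) bind Cdk4 and Cdk6. Cdkn2a also encodes p19Arf from a second promoter, which blocks Mdm2. In skeletal progenitors these genes are read as markers of growth arrest and, with age, of senescence. Much of the control of p53 acts on the protein, which RNA counts do not measure.

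Promoter sequences are shown for 4 genes, because 3 of them are p53 targets whose promoter window holds a p53 half-site and the other, Plk2, is the p53 target whose libraries split by round while its window holds none. The windows are 300 bases long, end 50 bases past a RefSeq start site (build GRCm38.p6, 5′ to 3′ on the gene's strand) and are in lower case, and capitals mark each match to the p53 half-site, a motif of 10 letters that reads the same on both strands.
Cdkn1a, first start, chr17:29090729-29091028, plus strand: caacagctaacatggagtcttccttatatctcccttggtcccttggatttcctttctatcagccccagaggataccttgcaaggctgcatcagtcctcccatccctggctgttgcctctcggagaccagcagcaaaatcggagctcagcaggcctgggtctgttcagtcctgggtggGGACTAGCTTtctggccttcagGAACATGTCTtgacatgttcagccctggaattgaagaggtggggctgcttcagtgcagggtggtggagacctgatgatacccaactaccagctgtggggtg
Mdm2, chr10:117710709-117711008, minus strand: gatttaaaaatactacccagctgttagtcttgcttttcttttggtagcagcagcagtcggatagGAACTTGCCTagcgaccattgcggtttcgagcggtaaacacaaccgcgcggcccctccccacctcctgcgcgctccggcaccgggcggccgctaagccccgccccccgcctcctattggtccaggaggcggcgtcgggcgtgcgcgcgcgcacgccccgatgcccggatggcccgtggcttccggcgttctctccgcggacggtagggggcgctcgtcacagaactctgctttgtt
Ccng1, chr11:40755237-40755536, minus strand: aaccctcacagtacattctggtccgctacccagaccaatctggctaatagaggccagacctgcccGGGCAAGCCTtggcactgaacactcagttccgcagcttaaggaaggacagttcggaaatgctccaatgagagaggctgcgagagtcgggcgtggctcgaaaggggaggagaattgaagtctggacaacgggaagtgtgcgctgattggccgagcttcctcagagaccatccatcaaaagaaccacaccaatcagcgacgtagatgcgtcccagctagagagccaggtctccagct
Plk2, chr13:110394794-110395093, plus strand: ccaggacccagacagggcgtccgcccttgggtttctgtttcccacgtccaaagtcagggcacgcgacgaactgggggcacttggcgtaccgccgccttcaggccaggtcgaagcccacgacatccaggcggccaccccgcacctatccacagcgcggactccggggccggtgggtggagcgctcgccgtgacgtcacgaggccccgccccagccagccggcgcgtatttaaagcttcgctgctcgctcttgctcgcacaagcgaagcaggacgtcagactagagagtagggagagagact

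The Cdkn1a window held 2 half-sites, whose first bases lay 73 and 51 bases before the start. In Mdm2 the half-site began 186 bases before the start, and in Ccng1 it began 185 bases before it. Trp53 and Cdkn2d each held 1, at 75 and 102 bases before the start. All 10 genes matched the RefSeq promoter table, with 13 start sites between them, and 5 of the 13 windows held at least 1 half-site. Of all 32851 promoter windows of this length, 8.36% held one. The letters are a description and do not show binding.

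In CpG dinucleotides, the sites of DNA methylation, the windows differed widely. The first Cdkn1a window held 2 and the other Cdkn1a window 23, against a median of 7 over all windows. Mdm2 held 35, Plk2 31, Cdkn1b 30, Cdkn2b 18, Cdkn2d 22, Ccng1 14 and Trp53 10. The upstream Cdkn2a window held 45 and the downstream one 12, and the pair of Cdkn2c windows held 33 and 8. Methylation was not measured in the data used here.

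Libraries held 104782544 to 168004119 counts, and levels are given as CPM, each count scaled to its library's size with TMM factors. At these depths 1 CPM stood for more than 100 counts. Values are given in the order round 1, round 2. Tet1, the targeted gene, had 15.6 and 19.6 CPM in wild-type SSC, 7.26 and 11.8 CPM in KO SSC, 21.6 and 10.98 CPM in wild-type BCSP, and 10.8 and 11.97 CPM in KO BCSP. The genotypes were separate in SSC and overlapped in BCSP. A count over the whole gene is a weak check of a targeted allele. Eng, which encodes the sort marker CD105, was at 2.53 to 3.89 CPM in SSC and 25.7 to 50.5 CPM in BCSP, and Col2a1, the main collagen gene of cartilage, was abundant in all 8 libraries. Erythroid marker genes summed to 2.45 to 41.1 CPM, neutrophil genes to 0.139 to 179, lymphoid genes to 0.113 to 43.3 and endothelial genes to 0.314 to 2.91, with the highest blood-cell sums in the wild-type SSC library of round 1. Macrophage and osteoclast genes summed to 54.8 to 88.6 CPM. The 6 skeletal muscle genes summed to 7.91 to 11.997 CPM in the 4 KO libraries. In the 4 wild-type libraries they summed to 12.1 to 26.0 CPM. Between 0 and 3 of the 6 had no counts in a library, and Acta1 and Tnnt3 held most of each sum. Acta1, the muscle actin gene, was at -1.82 ± 0.56 in SSC and was not called by edgeR. Of the 5 muscle genes tested, 2 lay above 0 and 3 below in KO over both cell types, with a median log2 fold change of -0.10. Of 5 sex-linked genes, the 4 Y-linked ones (Ddx3y, Eif2s3y, Kdm5d and Uty) lay higher in KO over both cell types. The X-linked gene Xist lay lower, and the median log2 fold change of the 5 was 0.91. Ddx3y ran from 23.2 to 39.7 CPM in wild type and from 62.1 to 92.2 CPM in KO. Xist ran from 277 to 621 CPM in wild type and from 75.0 to 291 CPM in KO. All 5 had an unadjusted p under 0.05 by edgeR, and 0 were called. The part of these differences in the results was not tested.

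Library deviations also followed exon length. Across 12636 genes, the Spearman correlation of a library's deviation from the gene mean with exon length was -0.498 in the wild-type BCSP library of round 2 and 0.357 in the KO BCSP library of round 2. In the other libraries it ran from -0.244 to 0.225. Across genes, the log2 fold change of KO against wild type correlated with exon length at 0.401 in BCSP and 0.209 in SSC. The shortest of the 10 genes by exon length are Cdkn2a (1172 bases), Cdkn2b (1390) and Cdkn2d (1574), and their BCSP values with offsets for exon length are given below.

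Cdkn1a was by far the most abundant of the 10 genes and Cdkn2a the least. The gene for p21 (chr17:29090976-29100727, mm10) had 162 to 229 CPM, which placed it at the 97.6th percentile of the tested genes by mean CPM. Per kilobase of exon, Cdkn1a averaged 52.0 CPM over the 8 libraries, with a range of 45.5 to 64.5. Next came Cdkn2d at 13.7, Mdm2 at 11.9, Ccng1 at 10.8, Trp53 at 9.91, Cdkn2c at 9.39, Plk2 at 8.84 and Cdkn1b at 6.74 CPM per kilobase. The ranges of neighbours in this stretch of the order overlapped, so their order is not resolved. Cdkn2b followed at 1.87 and Cdkn2a at 0.0826 CPM per kilobase. Cdkn1a lay above Cdkn2d, Cdkn1b above Cdkn2b, and Cdkn2b above Cdkn2a in 8 of 8 libraries, with no overlap of ranges.

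**Figure D1:**
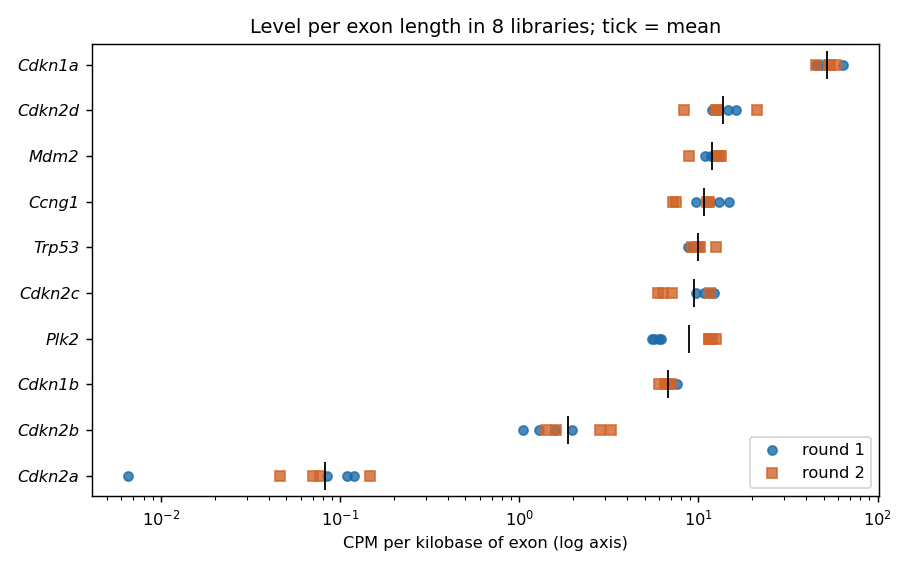
Level of the 10 genes in CPM per kilobase of exon (log axis), 1 point per library, circles for round 1 and squares for round 2, with a tick at the mean of the 8 libraries. Cdkn1a, at a mean of 52.0, stands clear of the 7 genes between 6.74 and 13.7, and Cdkn2b (1.87) and Cdkn2a (0.0826) stand clear below them.

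Between KO and wild type, no gene of the 10 passed the test in either cell type. The edgeR quasi-likelihood test, with Benjamini-Hochberg adjustment over 22153 genes and a threshold of 0.05, called 0 of 10 in SSC, where 0.00451% of all genes were called. It called 0 of 10 in BCSP (0.00451% of all genes), 0 of 10 for the difference between the cell types (0% of all genes), and 0 of 10 over both cell types together (0.0135% of all genes). At an unadjusted p under 0.05 the counts were 0 in SSC (1.201% of all tested genes), 2 in BCSP (6.19%), 0 for the difference (1.27%) and 2 over both cell types (7.91%). DESeq2 and limma-voom also called 0 of 10 in each of these comparisons. Of all 22153 genes DESeq2 called 9, 20, 0 and 103 in the same order, and limma-voom called 1, 1, 0 and 1. Over both cell types the median log2 fold change of the 10 genes was 0.00093 and that of all tested genes 0.02.

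**Figure D2:**
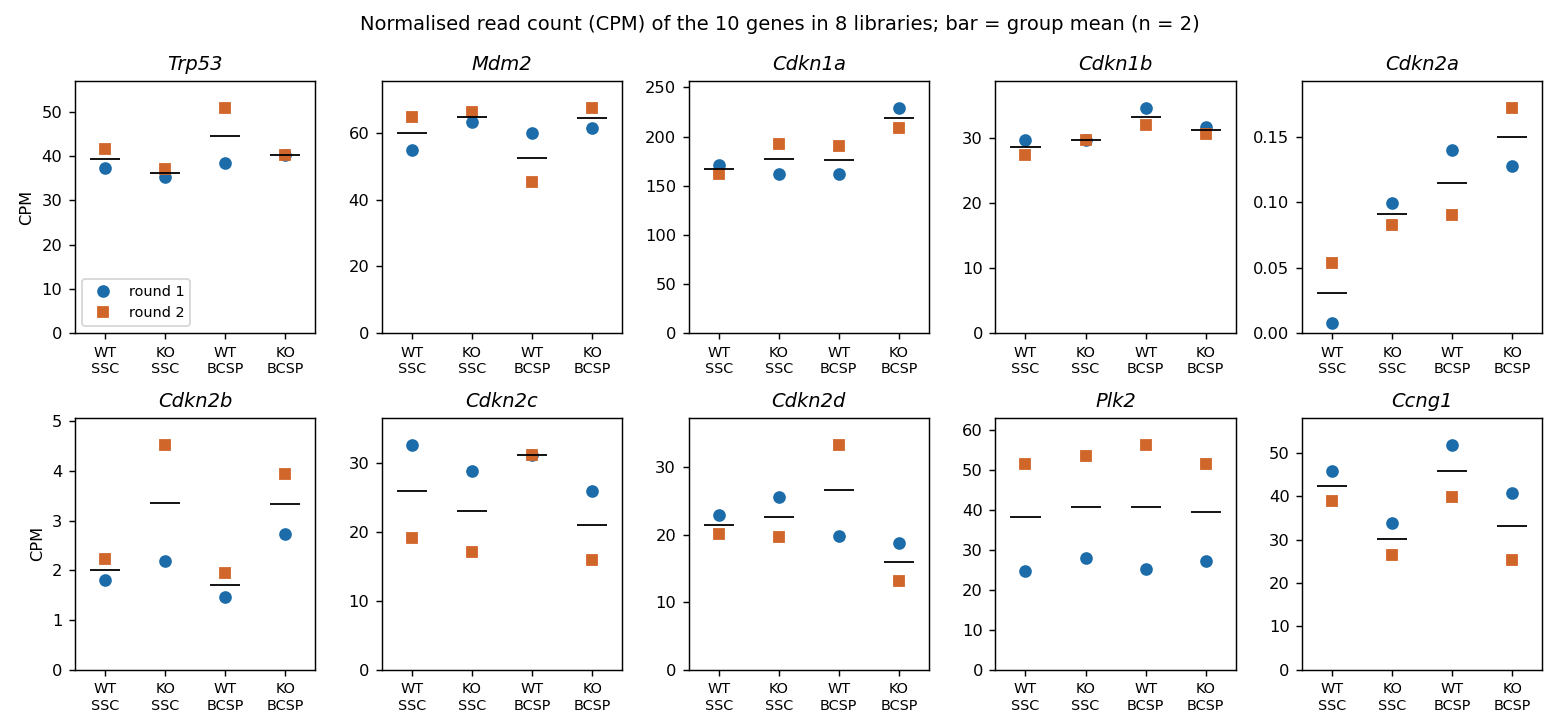
Normalised read count (CPM, linear axes from 0) of each of the 10 genes in the 8 libraries, with circles for round 1, squares for round 2 and a bar at each group mean (n = 2). Plk2 splits by round in all 4 groups, while Cdkn2b lies higher and Ccng1 lower in KO than in wild-type libraries of the same round.

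Trp53 (chr11:69580359-69591873) had 37.2 and 41.5 CPM in wild-type SSC against 35.3 and 37.1 CPM in the KO ones. The wild-type BCSP libraries held 38.4 and 50.8 CPM of it, those of KO 40.3 and 40.1 CPM. The KO SSC values lay just below the wild-type ones, and in BCSP the KO values lay between the wild-type ones. Over both cell types the log2 fold change was -0.14 ± 0.14 (SE, edgeR adjusted p = 0.799), with a 95% interval of -0.43 to 0.16.

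Mdm2 (chr10:117688875-117710758, minus strand) had 54.9 and 64.8 CPM in wild-type SSC, compared with 63.4 and 66.2 CPM in the KO libraries. Wild-type BCSP libraries held 60.0 and 45.2 CPM of Mdm2 and KO BCSP libraries 61.4 and 67.5 CPM. KO was the higher in 4 of 4 round-matched pairs, by 0.03 to 0.58 on the log2 scale, with the largest gap in BCSP of round 2, where the wild-type library was the lowest of the 8. Over both cell types the log2 fold change was 0.20 ± 0.14 (edgeR adjusted p = 0.706, 95% interval -0.11 to 0.51).

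Cdkn1a had 171 and 162 CPM in wild-type SSC, and the KO SSC libraries held 162 and 192 CPM. Its BCSP values were 162 and 190 CPM (wild type) and 229 and 209 CPM (KO). Both KO BCSP libraries lay above every other library, and the SSC genotypes overlapped. The log2 fold change was 0.31 ± 0.23 in BCSP (edgeR adjusted p = 0.710) and 0.20 ± 0.15 over both cell types (adjusted p = 0.720, 95% interval -0.12 to 0.52).

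Cdkn1b (chr6:134920401-134925513) was the steadiest of the 10 genes, with its highest library 1.26 times its lowest. It had 29.8 and 27.4 CPM in wild-type SSC and 29.7 and 29.6 CPM in KO SSC. Its BCSP levels were 34.6 and 32.0 CPM (wild type) and 31.7 and 30.6 CPM (KO). The log2 fold change over both cell types was -0.02 ± 0.13 (edgeR adjusted p = 0.977, 95% interval -0.30 to 0.26), and its sign changed with the scaling.

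Cdkn2b (chr4:89306299-89311039, minus strand), the p15 gene next to Cdkn2a, had the largest fitted difference between genotypes apart from Cdkn2a, which rests on few counts. Wild-type SSC libraries held 1.79 and 2.23 CPM and those of KO SSC 2.20 and 4.53 CPM. For BCSP the values were 1.46 and 1.95 CPM (wild type) and 2.72 and 3.93 CPM (KO). KO was the higher in 4 of 4 round-matched pairs, by 0.29 to 1.02 on the log2 scale. In SSC the KO library of round 1 lay just below the wild-type library of round 2. Its log2 fold change was 0.74 ± 0.44 in SSC (edgeR adjusted p = 1), 0.96 ± 0.44 in BCSP (adjusted p = 0.686) and 0.85 ± 0.29 over both cell types (adjusted p = 0.611). The last corresponds to 1.80-fold, with an unadjusted p of 0.0118 by edgeR, and does not pass over all genes. Without the KO SSC library of round 2 the SSC value was 0.11, and with offsets for exon length the BCSP value was 1.26 (adjusted p = 0.718).

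Cdkn2a (chr4:89274471-89294653, minus strand) was close to absent. Its counts were 1 and 7 in wild-type SSC, 11 and 11 in KO SSC, 16 and 13 in wild-type BCSP and 16 and 21 in KO BCSP. The highest library stood at 0.172 CPM. The p16 and p19Arf transcripts share the row and cannot be separated. The fitted difference over both cell types was 0.94 ± 1.17 on the log2 scale (edgeR adjusted p = 0.839), and at these counts no difference was detectable. In BCSP it was 0.38 ± 1.70, and 0.61 with offsets for exon length.

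Cdkn2c (chr4:109660876-109667189, minus strand) had 32.6 and 19.1 CPM in wild-type SSC, while KO SSC libraries held 28.8 and 17.1 CPM. Both wild-type BCSP libraries held 31.1 CPM, and those of KO BCSP 25.9 and 15.9 CPM. KO was the lower in 4 of 4 round-matched pairs, and BCSP of round 2 made the largest gap, 0.97 on the log2 scale, against at most 0.26 in the other pairs. The log2 fold change was -0.57 ± 0.33 in BCSP (edgeR adjusted p = 0.686) and -0.37 ± 0.23 over both cell types (adjusted p = 0.664).

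Cdkn2d (chr9:21288410-21291407, minus strand) had 22.9 and 20.1 CPM in wild-type SSC libraries and 25.5 and 19.6 CPM in KO SSC libraries. The BCSP libraries held 19.8 and 33.3 CPM (wild type) and 18.8 and 13.1 CPM (KO). The libraries of BCSP round 2 were the highest and the lowest of all 8, and the round 1 libraries of BCSP differed by 0.08 on the log2 scale. The log2 fold change in BCSP was -0.74 ± 0.29 (edgeR adjusted p = 0.686, unadjusted p 0.0250). Without both BCSP libraries of round 2 it was -0.07, and with offsets for exon length it was -0.47. Those libraries are the ones whose deviations followed exon length most, and Cdkn2d has 1574 bases of exon. The part of the exon-length trend in the Cdkn2d difference was not tested. The difference between the genotype effects in SSC and BCSP was 0.81 ± 0.41 (edgeR adjusted p = 0.9999), and it was 0.14 without those libraries.

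Ccng1 (chr11:40748552-40755311, minus strand) is the gene of cyclin G1. SSC libraries held 45.8 and 39.1 CPM of it in wild type against 33.9 and 26.4 CPM in KO. BCSP libraries held 52.0 and 40.0 CPM against 40.8 and 25.4 CPM. KO was the lower in 4 of 4 round-matched pairs, by 0.35 to 0.65 on the log2 scale. In BCSP the KO library of round 1 lay just above the wild-type library of round 2. The log2 fold change was -0.49 ± 0.27 in SSC (edgeR adjusted p = 1), -0.47 ± 0.27 in BCSP (adjusted p = 0.686) and -0.48 ± 0.17 over both cell types (adjusted p = 0.614). The last corresponds to a level 1.40-fold lower, with an unadjusted p of 0.0154 by edgeR, and does not pass over all genes.

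Plk2 (chr13:110395046-110400844) had 24.7 and 51.5 CPM in wild-type SSC, with 27.9 and 53.4 CPM in KO SSC. For BCSP the pairs were 25.2 and 56.3 CPM (wild type) and 27.2 and 51.6 CPM (KO). Within rounds KO and wild type differed by -0.13 to 0.18 on the log2 scale. Because the spread between rounds enters the error of the genotype test, the 95% interval over both cell types was wide, at -0.74 to 0.79 around 0.02 (edgeR adjusted p = 0.990).

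KO lay on the same side of wild type in all 4 round-matched pairs for 4 of the 10 genes, with Mdm2 and Cdkn2b higher and Cdkn2c and Ccng1 lower. Of all tested genes 20.5% did so. For 0 of 10 genes did the 4 KO libraries lie clear of the 4 wild-type libraries, against 4.37% of all tested genes. Within BCSP alone the genotypes did not overlap for Mdm2, Cdkn1a, Cdkn1b, Cdkn2b, Cdkn2c and Cdkn2d. Within SSC alone they did not overlap for Trp53, Cdkn2a and Ccng1. The share of all tested genes that did so within a cell type was not computed, so this separation is only a description. Of the p53 targets, Mdm2 (0.20), Cdkn1a (0.20) and Plk2 (0.02) had fitted log2 fold changes above 0 over both cell types, and Ccng1 (-0.48) had one below 0. None of these targets passed the test.

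**Figure D3:**
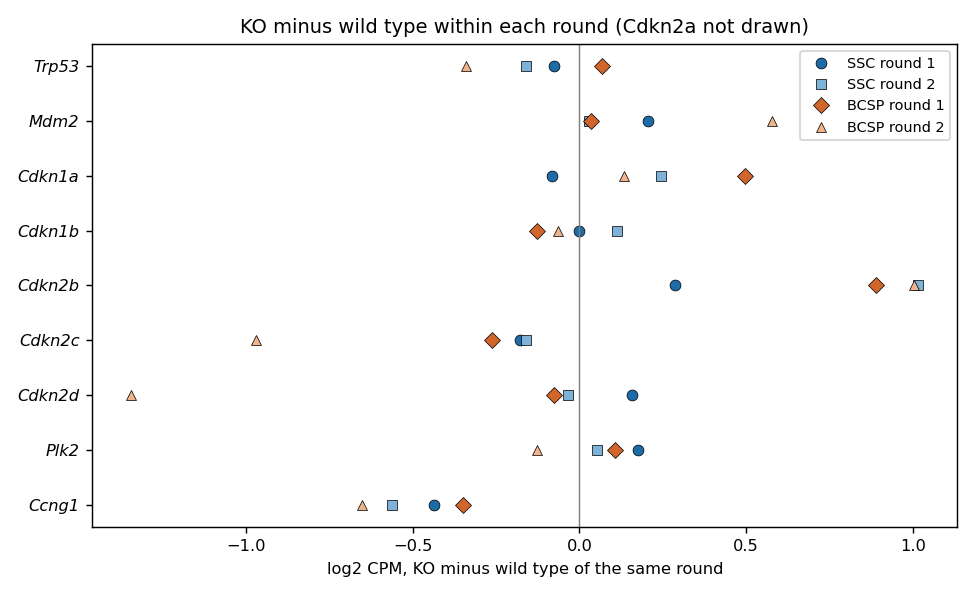
Log2 CPM of KO minus wild type within each round for 9 genes, with 4 points per gene (2 cell types by 2 rounds) and a line at 0. All 4 points of Mdm2 and Cdkn2b lie above 0 and all 4 of Cdkn2c and Ccng1 below it, while Cdkn2d is far from 0 only in BCSP of round 2. Cdkn2a is left out because of its low counts.

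**Figure D4:**
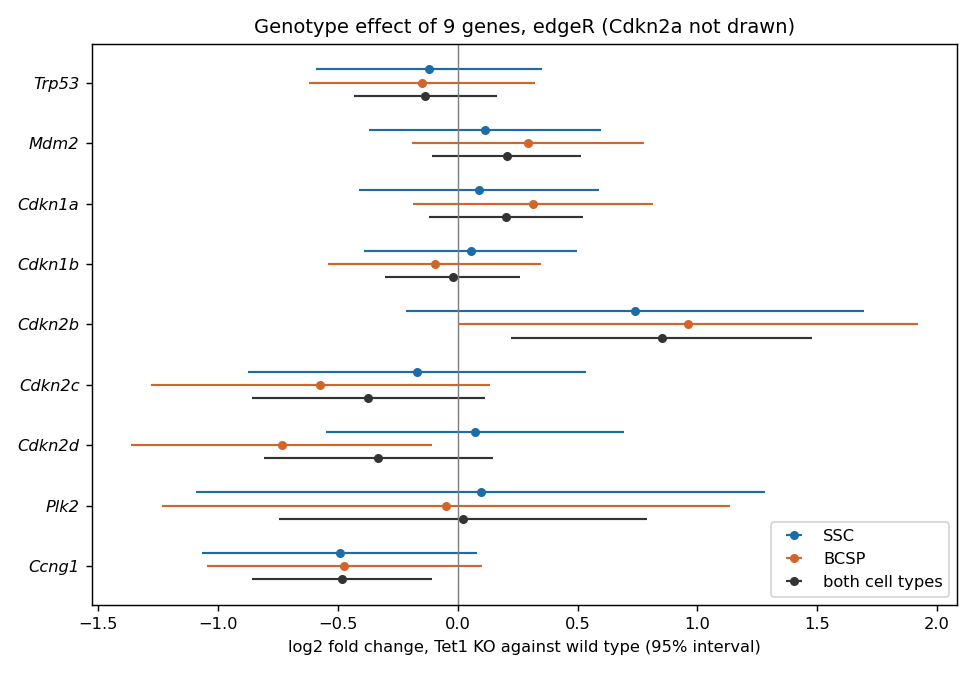
Log2 fold change of KO against wild type for 9 genes in SSC, BCSP and both cell types, with 95% intervals from the edgeR fit. The intervals over both cell types exclude 0 for Cdkn2b (0.85) and Ccng1 (-0.48), and those in BCSP for Cdkn2b (0.96) and Cdkn2d (-0.74). They are not adjusted for the 22153 genes tested, and no gene drawn had an edgeR adjusted p under 0.05.

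Between SSC and BCSP no gene of the 10 passed the test. The edgeR test called 0 of 10 over both genotypes (0.00451% of all genes). It called 0 of 10 in wild type (0.00451%) and 0 of 10 in KO (0.00451%). DESeq2 and limma-voom called 0 of 10 as well. Of all 22153 genes DESeq2 called 39, 2 and 2 in the same order, and limma-voom called 1 in each. At an unadjusted p under 0.05 by edgeR there were 0 of 10 in each, against 3.71%, 2.48% and 1.53% of all tested genes. Cdkn1b, the p27 gene, was the single one of the 10 whose libraries did not overlap between the cell types, while 2.53% of all tested genes did not overlap. It ran from 27.4 to 29.8 CPM in SSC and from 30.6 to 34.6 CPM in BCSP. Its log2 fold change of SSC against BCSP was -0.14 ± 0.13 (edgeR adjusted p = 0.99998). In bulk RNA, fewer expressing cells and less RNA per cell cannot be told apart.

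Between rounds, Plk2 rose and no other gene of the 10 passed. Plk2 encodes a polo-like kinase that is a p53 target and also an early-response gene. It ran from 24.7 to 27.9 CPM in the 4 libraries of round 1 and from 51.5 to 56.3 CPM in the 4 libraries of round 2, with no overlap. Its log2 fold change was 1.02 ± 0.13 (2.03-fold, edgeR adjusted p = 0.00179), higher in round 2 in 4 of 4 groups, by 0.92 to 1.16. That is 1 of 10 genes called, against 2.15% of all tested genes, of which 311 rose and 165 fell. Plk2 was likewise the single gene of the 10 whose rounds did not overlap, against 7.62% of all tested genes. Within rounds the spread of Plk2 was small, with 26.3 ± 1.54 CPM (SD, n = 4) in round 1 and 53.2 ± 2.24 CPM in round 2.

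**Figure D5:**
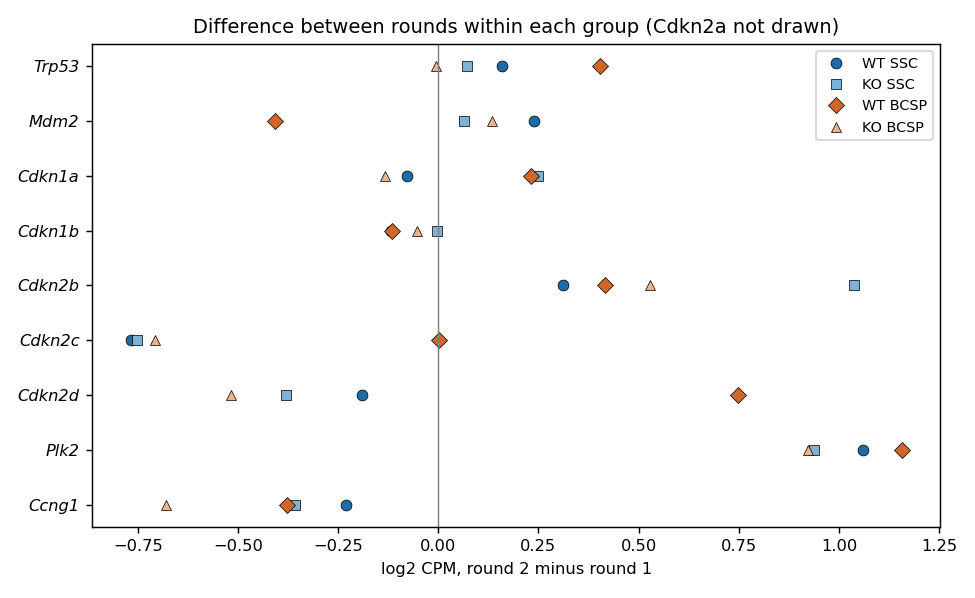
Log2 CPM of round 2 minus round 1 within each of the 4 groups for 9 genes, with a line at 0. The 4 points of Plk2 lie together between 0.92 and 1.16, those of Ccng1 lie below 0, and Cdkn2c is below 0 in 3 groups but level in wild-type BCSP. Cdkn2a is left out because of its low counts.

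The other round differences did not pass over all genes by edgeR. Cdkn2b was higher in round 2 in 4 of 4 groups, at 0.57 ± 0.23 on the log2 scale (edgeR adjusted p = 0.298). Ccng1 was lower in 4 of 4 groups, at -0.41 ± 0.13 (adjusted p = 0.156). Cdkn2c was at -0.54 ± 0.17 (adjusted p = 0.148), with differences of -0.77, -0.75 and -0.71 in wild-type SSC, KO SSC and KO BCSP and of 0.0015 in wild-type BCSP. Leaving out the wild-type BCSP library of round 2 changed several of these calls. Without it Cdkn2c was at -0.74 (edgeR adjusted p = 1.32e-08), Ccng1 at -0.41 (adjusted p = 0.00201) and Cdkn2d at -0.38 (adjusted p = 0.0147), and the genes called over the whole table went from 476 to 4072. Cdkn2d differed by -0.19, -0.38 and -0.52 between rounds in the groups other than wild-type BCSP, where it differed by 0.75. At an unadjusted p under 0.05 by edgeR, 4 of the 10 genes differed between rounds, as did 13.3% of all tested genes.

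Immediate-early genes, which are transcribed within minutes of a stimulus, lay on the same side as Plk2, though most did not pass the test singly. All 12 of the listed genes had log2 fold changes above 0 for round 2 against round 1, with a median log2 fold change of 0.50 against 0.01 over all tested genes, and 5 of the 12 rose by edgeR. These were Jun (0.65 ± 0.14, adjusted p = 0.0289), Fosb (0.62 ± 0.14, adjusted p = 0.0377), Egr3 (0.65 ± 0.15, adjusted p = 0.0468), Ier3 (0.69 ± 0.16, adjusted p = 0.0462) and Atf3 (0.67 ± 0.16, adjusted p = 0.0475). The summed level of all 12 genes was 20475 to 21905 CPM in the round 1 libraries and 27274 to 32358 CPM in those of round 2. Of 15 proliferation genes, 14 lay lower in round 2 and 4 fell, among them the topoisomerase gene Top2a (-0.76 ± 0.15, edgeR adjusted p = 0.0202) and the ribonucleotide reductase gene Rrm2 (-0.83 ± 0.15, adjusted p = 0.0136). All 7 neutrophil genes lay lower in round 2, with 2 called, and so did all 7 osteoblast genes, with 4 called. The part of these shifts in the Plk2 difference was not tested, and what differed between the rounds is not given in the labels.

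Further p53 target genes were split in direction. Of 25 further p53 target genes, 13 lay above 0 and 12 below in KO over both cell types, with a median log2 fold change of 0.08 and 0 called. The ends of that list were Fas, a death receptor gene (0.44 ± 0.23), and Perp, a membrane protein gene of epithelial adhesion and apoptosis (0.41 ± 0.33), on the high side. Tigar, a regulator of glycolysis (-0.57 ± 0.39), and Psrc1 (-0.35 ± 0.28), a spindle protein gene, were on the low side. In BCSP the high end was Trp53inp1 (0.70 ± 0.36), which encodes a partner of p53. Between rounds 2 of the 25 rose by edgeR, Gadd45a (0.78 ± 0.16, adjusted p = 0.0257), which answers DNA damage and other stress, and Perp (0.97 ± 0.17, adjusted p = 0.0121), while 11 lay above 0 and 14 below. The early-response kinase gene Plk3, a relative of Plk2, was at 0.57 ± 0.14 between rounds, just short of the threshold (edgeR adjusted p = 0.0506).

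The list of p53 regulators and p53 relatives had 10 of 14 genes above 0 in KO over both cell types, with 0 called by edgeR. Its median was 0.21, against 0.02 over all tested genes, and 12 of the 14 had a mean of at least 1 CPM. Mdm4, the partner of Mdm2 in restraining p53, was at 0.50 ± 0.26 (edgeR adjusted p = 0.646), and the acetyltransferase gene Ep300 was at 0.42 ± 0.21. At the other end were the checkpoint kinase gene Chek2 (-0.48 ± 0.29) and the ubiquitin ligase gene Rchy1 (-0.11 ± 0.17). Mdm4 ran from 32.8 CPM in the wild-type BCSP library of round 2 to 108 CPM in the KO BCSP library of round 2. Those libraries are at the ends of the exon-length trend, and the part of that trend in the Mdm4 difference was not tested.

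The cyclins and CDKs that the inhibitors act on had 11 of 12 genes below 0 in KO over both cell types, with a median of -0.30 and 0 called by edgeR. Ccne1, the gene of cyclin E1, was at -0.57 ± 0.29 (edgeR adjusted p = 0.639), and Ccnd1, that of cyclin D1, was at -0.45 ± 0.21 (adjusted p = 0.628). Ccnd2 was at 0.00034 ± 0.16 and Cdk2 at -0.05 ± 0.15. Between rounds 9 of the 12 lay below 0, and Ccna2, the gene of cyclin A2, fell (-0.74 ± 0.17, edgeR adjusted p = 0.0443). Of 15 proliferation genes, 14 lay below 0 in KO over both cell types, with a median of -0.35 and 0 called. The RB and E2F genes, which carry the inhibitors' signal to transcription, split 3 above and 4 below 0 in KO, with 0 of 7 called. The ends of that list were E2f3 (0.28 ± 0.16) and E2f1 (-0.37 ± 0.17), and between rounds the pocket protein gene Rbl1 fell (-0.78 ± 0.14, edgeR adjusted p = 0.0116).

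Of 12 other genes that inhibit CDKs or control the inhibitors, 6 lay above and 6 below 0 in KO over both cell types. None was called by edgeR and 6 had an unadjusted p under 0.05, against 7.91% of all tested genes. Kdm6b, a demethylase gene for the histone mark H3K27me3 that acts at Cdkn2a, had 146 and 238 CPM in wild-type SSC against 168 and 329 CPM in KO libraries. In BCSP the values were 120 and 152 CPM (wild type) and 235 and 375 CPM (KO). Its log2 fold change over both cell types was 0.77 ± 0.27 (edgeR adjusted p = 0.613). Cbx7, a Polycomb gene that represses Cdkn2a, was at 0.75 ± 0.32. The CDK inhibitor gene Cdkn1c (p57) was at -0.48 ± 0.22 and Cks1b, whose product helps the turnover of p27, at -0.50 ± 0.22, with edgeR adjusted p of 0.626 and 0.614.

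The genes whose profile over the 8 libraries was most like that of Plk2 were A2m, a protease inhibitor gene, Tmem131l and Dusp5, a phosphatase gene of the ERK pathway. Likeness was the mean absolute difference of log2 CPM after centring each gene, over 9522 genes of at least 5 CPM, and was 0.08, 0.09 and 0.09 for these 3. Dusp5 ran from 61.1 to 144 CPM. For Trp53 the closest genes were Elk1 (0.03), Ext1 (0.04) and Rsu1 (0.04), and for Cdkn1a they were Itprip (0.06), Aebp1 (0.07) and Ltbp3 (0.07). Profiles over 8 libraries share library depth and scaling, so these names are a description.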

How the data were processed

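The authors deposited whole-number counts of reads per gene for 8 libraries of paired reads of 150 bases. The tools they list, per the submitters' processing notes, are STAR, featureCounts and DESeq2, and the build is mm10. The name of the count table points to htseq instead, so the program that counted the reads is not settled. Versions, annotation and strand setting are not given in the sources used here, so antisense reads cannot be told apart from sense ones. Column names SCC and BCP were read as SSC and BCSP.

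Counts were tested with edgeR 4.0.16 (R 4.3.3, limma 3.58.1): TMM scaling, filterByExpr (minimum count 10, minimum total 15), which kept 22153 of 55471 genes and all 10 members, and a robust quasi-likelihood fit to all 8 libraries with 1 mean per group (4 residual degrees of freedom). Effects over both cell types or genotypes used an additive model (5 residual degrees of freedom). Rounds were compared in an additive model with cell type, genotype and round as terms. Adjustment was by Benjamini-Hochberg over all tested genes. Log2 CPM used a prior count of 2. Gene positions and exon lengths came from GENCODE (mm10), with 55230 rows matched. Alternatives were DESeq2 1.42.0, limma-voom, other scalings and filters, a replicate block, exon-length offsets and leaving out libraries. Scripts were tested on simulated data.

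All 10 genes are described in every genotype comparison. From each pathway list the 2 highest and 2 lowest genotype differences at a mean of at least 1 CPM, and any gene that passed, could be named, and for Trp53, Cdkn1a and Plk2 the 3 genes with the most alike profile. Plk3, Acta1, Tnnt3, the sex-linked genes and the levels of Tet1, Eng and Col2a1 were added outside this rule. The members, lists and tests were chosen with earlier results of these data known.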

Additional observations from a re-analysis of the deposited data

How the results depend on the processing

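No genotype or cell-type comparison gained a call among the 10 genes under any alternative run. Plk2 stayed called between rounds under each. Between rounds, the number of the 10 genes called moved from 1 to 2 without a filter and with exon-length offsets (Cdkn2c added). It moved to 3 with DESeq2 (Cdkn2c and Ccng1 added). In the same order, those runs called 1062 of 33146, 840 of 22153 and 1128 of 22153 genes in all. Without both BCSP libraries of round 2, Cdkn2c was at -0.74 between rounds. Leaving out single libraries gave 1 to 4, with 4 without the wild-type BCSP library of round 2; the cause was not tested. Genome-wide counts also moved: 1 to 9 in SSC, 1 to 38 in BCSP, 0 to 2 for their difference, 1 to 234 over both cell types, 1 to 66 for SSC against BCSP, 1 to 5 and 1 to 2 within wild type and KO, and 325 to 1932 between rounds (208 to 4072 leaving out single libraries).

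The following log2 differences changed sign. Plk2 in BCSP was 0.093 with library totals, 0.023 with a filter of 1 CPM, 0.11 without both BCSP libraries of round 2 and 0.011 with exon-length offsets (0.031 with the replicate block added). Without those 2 libraries Trp53 in BCSP was 0.072, Cdkn2a in BCSP -0.13 and Cdkn2d over both cell types 0.023. Cdkn1b over both was 0.028 with library totals and 0.0042 with the 1 CPM filter, and Mdm2 between rounds -0.021 with library totals. Leaving out single libraries, the SSC ranges were -0.0023 to 0.24 (Mdm2), -0.059 to 0.20 (Cdkn1a), -0.60 to 0.26 (Cdkn2c), -0.14 to 0.23 (Cdkn2d) and -0.47 to 0.72 (Plk2). They were -0.34 to 0.067 (Trp53) and -0.54 to 0.64 (Plk2) in BCSP, and -0.057 to 0.014 (Cdkn1b) and -0.19 to 0.31 (Plk2) over both. Between rounds they were -0.076 to 0.14 (Mdm2), -0.0099 to 0.14 (Cdkn1a), -0.19 to 0.84 (Cdkn2a) and -0.38 to 0.12 (Cdkn2d).

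With the round as a replicate block, 0 of the 10 genes were called between genotypes. Over both cell types Cdkn2b was then at 0.81 (edgeR adjusted p = 0.271) and Ccng1 at -0.50 (adjusted p = 0.219), and 28 genes were called in the whole table. Round-to-round differences correlated between groups at 0.0590 to 0.645 across 12639 genes. Correlations with wild-type BCSP ran from 0.0590 to 0.273, and those among the other groups from 0.559 to 0.645. Whether libraries with the same round number are true pairs was not tested. With 2 libraries per group, differences of the size seen for most of these genes lie within the spread.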
